A study of Zea mays with 9 samples.

Results

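The genes tip3a, tip3b and tip4d encode tonoplast intrinsic proteins, the water channels of the membrane around the plant vacuole. They were found by gene name: the platform annotation gives placeholder symbols, and the RefSeq gene table lists the names among its synonyms, where tip3a is also TIP3-1, tip3b is TIP3-2 and tip4d is TIP4-4. They are 3 of the 983 genes that could be named, and each was read by 1 probe set of the 17555 that are neither controls nor reporters. The 3 genes were selected on their signals on these same arrays, which had been seen to differ between the lines and to be uneven within B73. Their differences are therefore given as a description, with no test.

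Water channels are tetramers of membrane-spanning subunits, each of which forms a pore that lets water, and in some members small solutes, cross the membrane along its gradient. Plants have several families: tonoplast intrinsic proteins (TIPs), plasma membrane intrinsic proteins (PIPs), nodulin 26-like intrinsic proteins (NIPs) and small basic intrinsic proteins (SIPs). In seeds of Arabidopsis and other plants the TIP3 subgroup is found in the membrane of protein storage vacuoles, above all in the embryo and the aleurone, the outermost cell layer of the cereal endosperm.

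RNA was measured in endosperm, the starch-storing tissue of the maize (Zea mays) kernel, taken 15 days after pollination from field-grown plants. There were 3 groups of 3 Affymetrix arrays each: the inbred B73, the double mutant line ae wx, named for amylose extender and waxy, and the line sh1, named for shrunken1. The labels call the replicates biological and do not say how many kernels or ears went into each. They give no alleles and do not say how the mutant lines relate to B73, so an effect of a mutation and of the rest of the genome cannot be told apart. Several short probes against a transcript make up a probe set, whose signal is given in linear units of intensity, and the level of one probe set cannot be set against that of another.

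Array medians ran from 242.6 to 258.2, and the number of arrays, not a read depth, limits the precision. The lines could be checked at their named loci. The brightest probe set of sh1, a sucrose synthase gene, was lower in the sh1 line than in B73 by a log2 difference of -3.24 (limma, adjusted p = 3.34e-10), and its other probe sets were at -4.93 and -5.17 (limma, adjusted p = 1.56e-09 and 6.03e-11). In ae wx, wx1, the granule-bound starch synthase, differed from B73 by -1.60 (limma, adjusted p = 1.14e-06), while ae1, a starch branching enzyme, was 0.28 higher there (limma, adjusted p = 0.00399). All 11 endosperm markers found on the array, of 12 set down, among them zeins, o2 and sh2, were above background on all 9 arrays. Background was the 95th percentile, on each array, of 23 control probe sets with no maize target. It lay between 87.2 and 121.9, and the percentile was chosen after values had been seen. One array stood apart: B73 replicate 3 deviated by at least 1 (log2) from the mean of the other B73 arrays in 258 of the 12394 probe sets tested (2.08%). The same count was 135 for B73 replicate 1, 103 for B73 replicate 2 and between 6 and 102 for the arrays of the mutant lines, so values that rest on B73 replicate 3 are given with and without it.

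The signal of tip3a was high in B73, intermediate in sh1 and low in ae wx. In B73 it was 11622, 12089 and 2378 on replicates 1, 2 and 3, with a mean of 8696 ± 5477 (SD, n = 3). In sh1 it was 952.6, 1350 and 1347, a mean of 1217 ± 228.6 (SD, n = 3). In ae wx it was 195.0, 163.4 and 175.3, a mean of 177.9 ± 16 (SD, n = 3), above background on all arrays. The lowest B73 array lay above the highest sh1 array, and the lowest sh1 array above the highest ae wx array, so no pair of lines overlapped. Of all probe sets tested, 27.5% were likewise lower without overlap in ae wx than in B73, 28.3% in sh1 than in B73 and 31.5% in ae wx than in sh1, and nothing is read from the separation of the 3 genes, which were chosen for it.

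The log2 difference of tip3a, on the scale log2(signal + 16) with a standard error from the fit over all probe sets, was -5.17 ± 0.51 for ae wx against B73. It was -2.52 ± 0.51 for sh1 against B73 and -2.65 ± 0.51 for ae wx against sh1. As ratios of geometric mean signals, B73 was 39.1-fold above ae wx and 5.78-fold above sh1, and sh1 was 6.77-fold above ae wx. Without B73 replicate 3 the ratios against B73 were 66.8-fold and 9.87-fold, and the log2 differences were -5.94 and -3.29. The standard error comes from 1 spread shared by the 3 lines; the B73 arrays, which lay far apart, enter it.

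**Figure D1:**
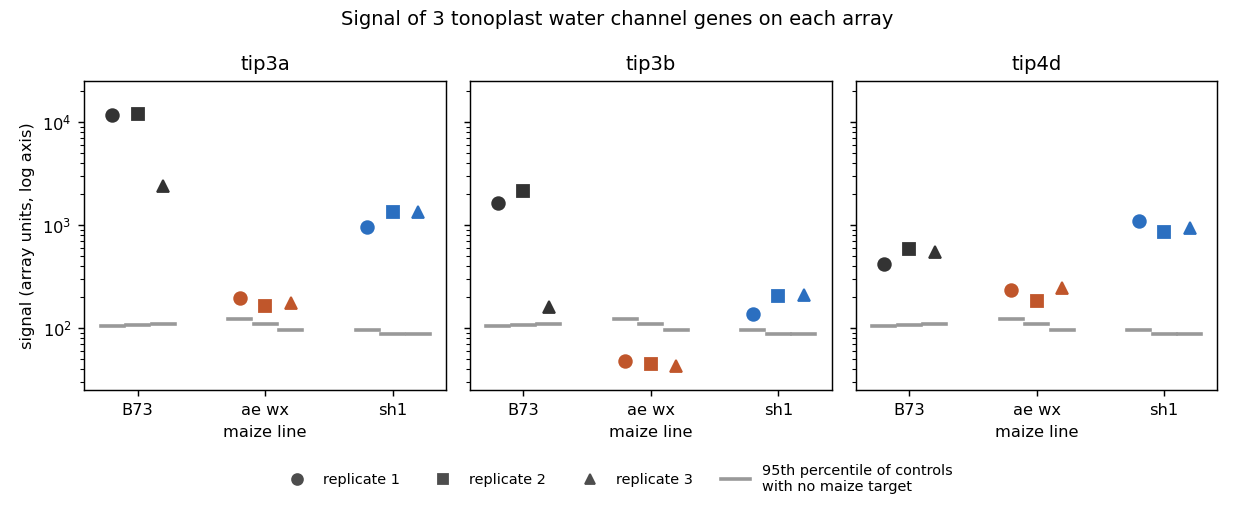
Signal of tip3a, tip3b and tip4d on each of the 9 arrays, on a logarithmic axis, for B73, ae wx and sh1 (circle, square and triangle for replicates 1, 2 and 3), with a grey bar for each array's background level. The B73 replicate 3 points of tip3a (2378) and tip3b (160.7) lie far below the other B73 points, and that of tip4d (543.5) lies between them.

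The other TIP3 gene, tip3b, had the same order of line means. In B73 its signal was 1630, 2141 and 160.7, with a mean of 1311 ± 1028 (SD, n = 3). In sh1 it was 135.9, 206.0 and 210.9, a mean of 184.3 ± 42.0 (SD, n = 3). In ae wx it was 47.6, 44.7 and 42.4, a mean of 44.9 ± 2.60 (SD, n = 3), and on none of these arrays was it above background. B73 replicate 3 lay inside the range of the sh1 arrays, so B73 and sh1 overlapped, while ae wx lay below both other lines on every array. The ae wx values give only a bound: B73 was at least 7.59-fold above ae wx, from geometric means of 824.6 in B73 and a background of 108.6 on the ae wx arrays, and sh1 was at least 1.66-fold above ae wx.

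Between sh1 and B73, where both were above background, the log2 difference of tip3b was -2.12 ± 0.75, and B73 was 4.56-fold above sh1 in geometric mean signal. Without B73 replicate 3 that difference was -3.26, a ratio of 10.3-fold, and the bound of B73 over ae wx was at least 17.2-fold. The sizes for tip3b against B73 thus depended on 1 array, while B73 replicates 1 and 2 both lay above every array of the mutant lines. Some of the signals above background were still near it. On B73 replicate 3 tip3b (160.7) lay below the brightest control with no maize target (226.9), as it did on sh1 replicate 1 (135.9, beside 161.2).

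The order of the lines was different for tip4d, of the TIP4 subgroup, which was highest in sh1. Its signal in sh1 was 1086, 865.5 and 932.2, with a mean of 961.3 ± 113.1 (SD, n = 3). In B73 it was 421.1, 587.5 and 543.5, a mean of 517.3 ± 86.2 (SD, n = 3). In ae wx it was 236.5, 182.8 and 244.5, a mean of 221.3 ± 33.5 (SD, n = 3). The arrays of the 3 lines did not overlap, as was so of 32.6% of probe sets for higher values in sh1 than in B73. The log2 differences were 0.88 ± 0.15 for sh1 against B73, -1.17 ± 0.15 for ae wx against B73 and -2.05 ± 0.15 for ae wx against sh1. In geometric mean signal sh1 was 1.87-fold above B73, B73 was 2.33-fold above ae wx and sh1 was 4.36-fold above ae wx. Without B73 replicate 3 the log2 differences against B73 were 0.92 and -1.12.

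All 3 genes thus had their lowest signal in ae wx, and they differed in whether B73 or sh1 was highest. Each comparison with B73 uses the same 3 B73 arrays. In these pieces of whole endosperm, fewer cells that express a gene and less of its RNA per cell cannot be told apart, and with 1 probe set per gene neither can a difference in RNA level and a difference between the lines in the sequence the probes bind.

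The spread between replicates set the TIP3 genes apart from tip4d in B73. The standard deviation of log2 values over the B73 arrays was 1.33 for tip3a and 1.98 for tip3b, against 0.24 for tip4d and a median of 0.18 over all probe sets tested. In ae wx the values were 0.12 for tip3a, 0.06 for tip3b and 0.21 for tip4d, with a median of 0.07. In sh1 they were 0.29, 0.33 and 0.16 in that order, with a median of 0.08. B73 was the most variable line in general, and the TIP3 genes, chosen partly for their unevenness, lay well above the median spread in B73 and in sh1.

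On B73 replicate 3, tip3a deviated from the mean of the other B73 arrays by -2.31 on the log2 scale. On that array 8 of the 12394 probe sets, tip3a included, were as low (0.0646%). For tip3b the deviation was -3.42, and 2 of the 12394 probe sets, tip3b included, were as low (0.0161%). These ranks are a description only, since both genes were chosen partly for their unevenness. The deviation of tip4d on B73 replicate 3 was 0.12, so it did not share the drop. On the sh1 arrays the TIP3 genes also moved together, with deviations on replicate 1 of -0.49 for tip3a and -0.56 for tip3b, beside 0.27 for tip4d. On the other sh1 arrays tip3a was at 0.25 and 0.24 and tip3b at 0.26 and 0.31. In ae wx the deviations of tip3a stayed between -0.16 and 0.19, and those of tip3b, all from signals below background, between -0.09 and 0.10.

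**Figure D2:**
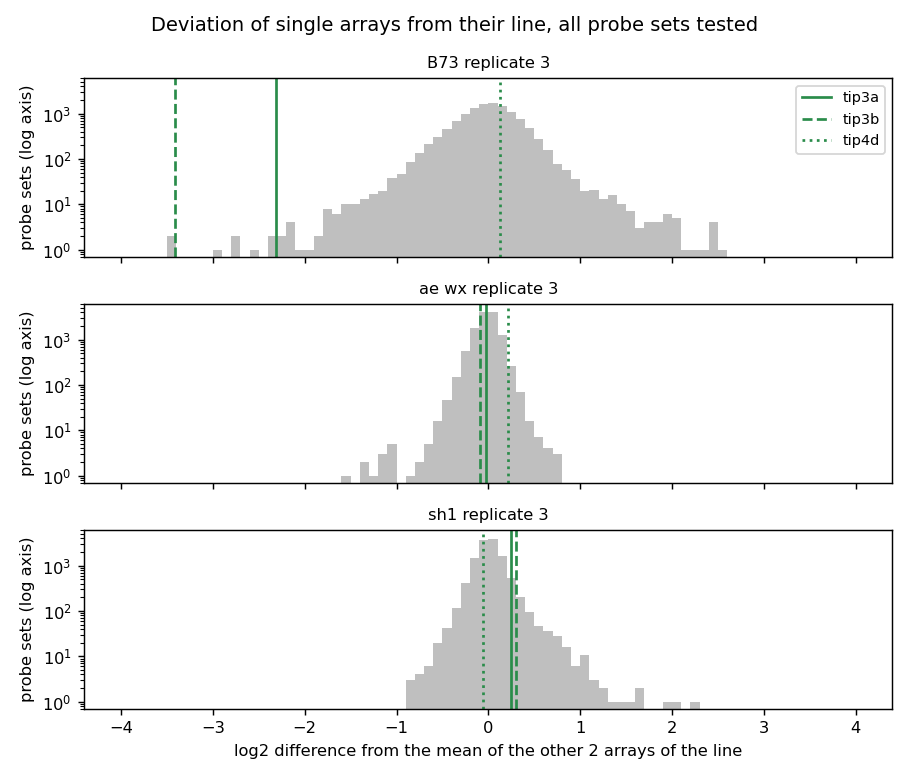
Histograms of the deviation of replicate 3 from the mean of the other arrays of its line (horizontal axis, log2) over the 12394 probe sets tested, for B73, ae wx and sh1, with the number of probe sets on a logarithmic axis and lines for tip3a, tip3b and tip4d. In B73, tip3a (-2.31) and tip3b (-3.42) lie in the far lower tail and tip4d (0.12) near the centre.

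Other genes that were low on B73 replicate 3 were looked for among the marker lists. Of the 6 embryo and aleurone markers tested, 5 were lower on that array than on the other B73 arrays, by deviations down to -1.54 for rab17, a dehydrin induced by abscisic acid. The median deviation there was -0.44 for the 6 markers and 0.01 for all probe sets tested. The storage globulin glb1 deviated by -0.84, and its signal was 3183 and 3111 on replicates 1 and 2 and 1745 on replicate 3. The summed signal of all 8 markers on the array was 17751.6, 19849.3 and 14468.4 on the B73 arrays, between 11219.2 and 12391.6 in ae wx and between 11775.2 and 15034.8 in sh1, with 6 or 7 of the 8 above background on each array. The oleosin gene ole1, a protein of oil bodies, held much of that sum, with means of 8758.5, 6957.5 and 8781.5 in B73, ae wx and sh1. The sum is thus lowest within B73 on the array where the TIP3 genes were low, and higher on the B73 arrays than on most arrays of the mutant lines. Within sh1 the sum did not follow the TIP3 genes. On sh1 replicate 1, where both TIP3 genes were lowest within the line, it was 15034.8, beside 11775.2 and 12648.9 on replicates 2 and 3. Of the 6 markers tested, 3 were lower and 3 higher on that array, from -0.18 for mlg3 to 1.09 for glb1. The median deviation of all probe sets tested on that array was -0.01. The part of these markers in the TIP3 values was not tested.

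Between the lines, 0 of the 6 embryo and aleurone markers were called higher and 3 lower in ae wx than in B73 (limma, adjusted p under 0.05), against 29.1% of all probe sets called higher and 24.4% called lower. In sh1 against B73 the counts were 0 higher and 2 lower, with 30.5% and 25.5% of all probe sets called, and in ae wx against sh1 0 higher and 1 lower, with 17.8% and 18.8%. The median log2 difference of the 6 was -0.40, -0.38 and -0.02 in these comparisons, beside 0.04, 0.04 and 0.00 over all probe sets. The gene with the lowest differences was glb1, at -2.50 ± 0.30 in ae wx (limma, adjusted p = 0.000101) and -2.47 ± 0.30 in sh1 (limma, adjusted p = 9.62e-05) against B73. Its mean in B73 was 2680 ± 810, against 446 ± 26.1 for the ae wx arrays and 485 ± 237 for those of sh1 (SD, n = 3). Between the mutant lines no difference of glb1 was detected, with a log2 difference of -0.02 (limma, adjusted p = 0.965). In ae wx, rab17 fell by 1.03 (limma, adjusted p = 0.0336) with overlapping arrays and ole1 fell by 0.32 (limma, adjusted p = 0.0124). In sh1, the 1-cysteine peroxiredoxin per1 fell by 0.72 (limma, adjusted p = 0.00998). The gene mlg3 was called in no comparison, nor was the brightest probe set of the seed transcription factor vp1. A second vp1 probe set was called higher in ae wx, by 0.19 against B73 (limma, adjusted p = 0.043) and 0.25 against sh1 (limma, adjusted p = 0.0197). Leaving out any 1 of 5 arrays ended the call of rab17 (B73 replicates 1 and 2, adjusted p = 0.107 and 0.114, and the 3 ae wx arrays), while without B73 replicate 3 it was at -1.54 (limma, adjusted p = 3.41e-05). Without B73 replicate 3, 4 of the 6 markers were called in each comparison with B73. In that setting 3974 of all 12158 probe sets tested were called higher and 3293 lower in ae wx, and 4175 and 3409 in sh1.

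Markers of other cell types were measured as well. Of the 3 aleurone fate genes found on the array, 2 were called lower in ae wx and 3 in sh1 than in B73. Of all probe sets, 24.4% and 25.5% were called lower. Sal1 was at -0.69 in ae wx and -0.67 in sh1 (limma, adjusted p = 5.71e-05 and 6.21e-05). The values of cr4 were -0.60 and -0.46 (limma, adjusted p = 0.00155 and 0.00637). Nkd1 was at -0.67 in sh1 (limma, adjusted p = 0.00118), where it was also lower than in ae wx (limma, adjusted p = 0.00215). On B73 replicate 3, cr4 deviated by -0.23, Sal1 by 0.00 and Nkd1 by 0.26. The list, most of it from Nkd1 and Sal1, had summed signals of 5098.2, 5023.9 and 5529.3 over the B73 arrays, 4073.8 to 4361 in ae wx and 3011.5 to 3583 in sh1. This sum was not read as an amount of aleurone. The 5 green tissue genes summed to 960.6, 1095.1 and 543.4 in B73, between 378.6 and 407.0 in ae wx and between 373.5 and 427.0 in sh1, with 1 to 3 of them above background. The drop on B73 replicate 3 came from psah1, a photosystem I subunit, with a deviation of -2.39, while psbs1 and rca1 were above background on no array. The summed signal of the 5 transfer cell genes ran the other way between lines, from 963.8 to 1128 in B73, 1797.3 to 4842.7 in ae wx and 2225.6 to 3977.4 in sh1. One of them, betl4, was called in no comparison. The highest ae wx sum was that of replicate 1, where meg2 was 2085, beside 362.2 and 383.2. On B73 replicate 3, 4 of the 5 were lower and 1 higher, from -0.89 for bap2, above background on no B73 array, to 0.22 for BETL1. The median deviation of all probe sets tested there was 0.01. The part of these marker lists in the TIP3 values was not tested.

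Ratios that report on RNA quality were read from control probe sets. The log2 ratio of 3' over 5' probe sets was -0.68 for actin on B73 replicate 3, beside -0.86 and 0.00, and 2.20 for GAPDH, beside 2.40 and 2.90. For cyclophilin it was 0.23, beside 0.54 and 0.44. Their part in the TIP3 values was not tested. Between lines the GAPDH ratio ran from 4.18 to 4.69 in ae wx and from 5.79 to 6.12 in sh1, so it moved with the line, whereas a second GAPDH pair of probe sets was between -0.16 and 0.00 in B73, between -0.07 and 0.07 in ae wx and between 0.44 and 0.50 in sh1. Cyclophilin was lower in the mutant lines than in B73, from 0.01 to 0.10 in ae wx and from -0.03 to 0.05 in sh1. A pair for ef1a was at 1.07, 1.15 and 1.21 on B73 replicates 1, 2 and 3. It ran from 1.38 to 1.57 in ae wx and from 1.24 to 1.33 in sh1. The actin ratios of the lines overlapped.

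The genes whose profile was most like that of tip3a were found by the root mean square difference of log2 values centred on their mean over the 9 arrays, among 750 named genes. The nearest was tip3b, at 0.65. Next came the metallothionein-like mtl2 at 0.73, the sucrose synthase sus2 at 0.89, MRP2 at 0.99 and the homocysteine methyltransferase hmt4 at 0.99. On the B73 arrays mtl2 had signals of 3488.4, 4959.9 and 1782.1, in ae wx 199.1 to 233.0 and in sh1 974.8 to 1430.7. For sus2 the B73 signals were 3351.5, 2735.9 and 2010.0, those of ae wx 160.5 to 198.9 and those of sh1 363.2 to 556.5. Both genes had their highest signals in B73 and their lowest in ae wx. The signals of hmt4 were below background in both mutant lines (31.2 to 37.3 in ae wx, 42.3 to 69.7 in sh1), so it gives no order between them. Those of MRP2 were below background in ae wx (50.8 to 54.8) and above it in sh1 (162.6 to 167.1). Its ae wx values thus give a bound below sh1 and B73, not a size.

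Over the B73 arrays alone, the smallest differences from tip3a were those of lkrsdh1, the bifunctional enzyme of lysine breakdown, at 0.14, psah1 at 0.15, the alkaline alpha-galactosidases AGA2 at 0.28 and AGA3b at 0.30, and the thiamine synthesis gene thi1-2 at 0.39. The B73 signals of lkrsdh1 were 4231.8, 3656.9 and 901.1. Those of AGA3b were 900.7, 732.8 and 230.6. This likeness rests on 3 arrays, 1 of them far from the others, and is a description only. On B73 replicate 3 psah1 (107.7) was below background (109.9), so its likeness rests partly on a floor value. The mutant lines did not follow tip3a in all 5 genes: thi1-2 was higher in ae wx (781.6 to 791.5) than in sh1 (404.0 to 494.9). For AGA2 the arrays of ae wx (128.5 to 143.7) and sh1 (139.0 to 158.4) overlapped. The B73 replicate 3 signal of lkrsdh1 lay below its sh1 signals (2389.4 to 2854.2).

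**Figure D3:**
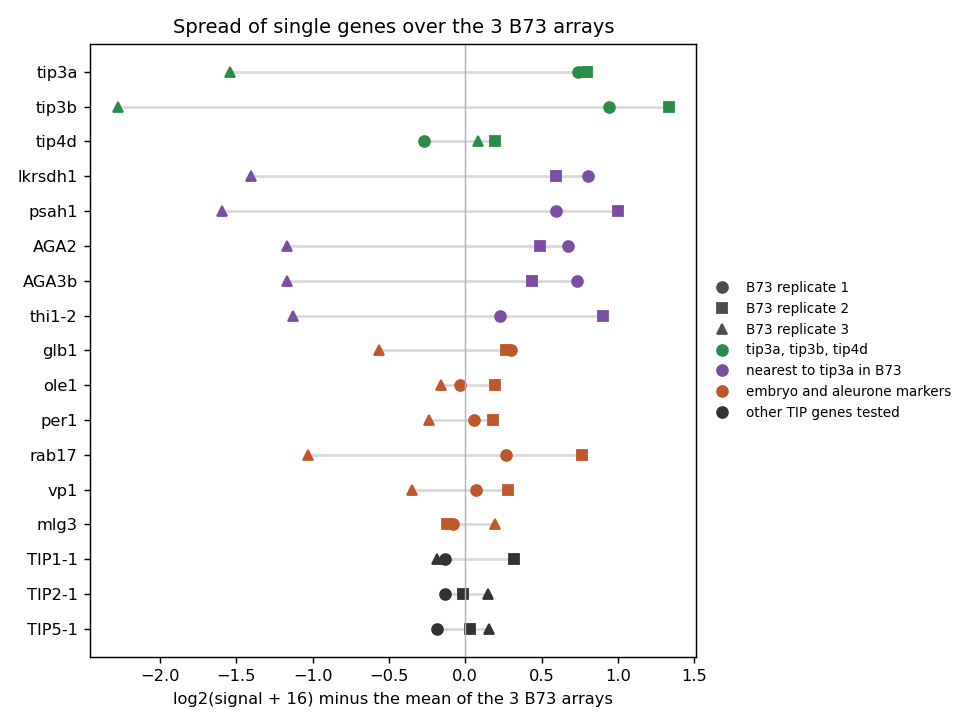
Log2(signal + 16) of single genes on the B73 arrays minus the mean of those arrays (horizontal axis), with a circle, square and triangle for replicates 1, 2 and 3, for tip3a, tip3b and tip4d, the 5 genes nearest to tip3a in B73, the 6 embryo and aleurone markers tested and the other TIP genes tested. Replicate 3 lies far to the left for tip3a, tip3b, the 5 nearest genes and rab17, and close to the other arrays for tip4d and the other TIP genes.

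On B73 replicate 3 the 17 other water channel genes tested deviated less than tip3a and tip3b. Those TIP3 genes were chosen partly for their unevenness, so nothing is read from this. Of the 17, 4 were lower and 13 higher on that array than on the other B73 arrays, from -0.28 for TIP1-1 to 0.61 for SIP1-2. The deviation of SIP1-2 was larger than that of tip4d (0.12). The median deviation there was 0.10 for the 17 genes and 0.01 for all probe sets tested. The platform holds 25 water channel genes besides the 3 described, namely 7 TIPs, 10 PIPs, 5 NIPs and 3 SIPs, and 8 of the 25 were too dim for the test. In ae wx against B73, 8 of the 17 were called higher, 4 lower and 5 not called, where 29.1% of all probe sets were called higher and 24.4% lower. In sh1 against B73, 6 were higher, 2 lower and 9 not called, beside 30.5% and 25.5% of all probe sets. In ae wx against sh1, 5 were higher, 3 lower and 9 not called, beside 17.8% and 18.8%. One of the 17, PIP1-3, reached the filter level on the 3 ae wx arrays and on no other array, so its calls as higher in ae wx are tied to the filter. The median log2 differences were 0.22, 0.19 and 0.03, beside 0.04, 0.04 and 0.00 over all probe sets. The calls among them in ae wx against sh1 dropped to 4 without ae wx replicate 2 and to 5 without ae wx replicate 1. Calls over all probe sets dropped as well, to 1513 higher and 1706 lower of 12261, and to 1552 and 1869 of 12228. Without B73 replicate 3 there were 14 calls in ae wx and 11 in sh1 against B73. Over all 12158 probe sets tested then, 3974 were called higher and 3293 lower in ae wx, and 4175 and 3409 in sh1.

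Among the other TIPs, TIP1-1 was highest in sh1, as tip4d was. Its mean in B73 was 1596 ± 323, that of ae wx 1376 ± 86.7 and that of sh1 3118 ± 446 (SD, n = 3). It was higher in sh1 than in B73 by 0.97 ± 0.15 (limma, adjusted p = 0.000453) and lower in ae wx than in sh1 by a difference of -1.16 ± 0.15 (limma, adjusted p = 0.000235), and ae wx and B73 were not told apart at -0.20 (limma, adjusted p = 0.299). By contrast TIP2-1 was higher in both mutant lines than in B73, by 0.48 ± 0.11 in ae wx (limma, adjusted p = 0.00434) and 0.49 ± 0.11 in sh1 (limma, adjusted p = 0.00376). TIP5-1 was called in no comparison, with means of 227.5 ± 28.5, 220.8 ± 13.8 and 234.0 ± 10.1 in B73, ae wx and sh1.

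The gene next to TIP5-1 in the RefSeq assembly, TIP2-3, was highest in B73, at a low level, and was too dim to be tested. Its B73 signals of 167, 210 and 119 were above background on all 3 arrays, and the ae wx mean of 55.4 ± 3.61 and the sh1 mean of 46.3 ± 7.24 came from arrays where it was above background on none. B73 was at least 1.48-fold above ae wx and at least 1.78-fold above sh1. On B73 replicate 3 it deviated by -0.59, and without that array the bounds were at least 1.72-fold and 2.07-fold. TIP4-1, of the same subgroup as tip4d, was above background on no array, and TIP1-2 and TIP2-2 were near it.

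**Figure D4:**
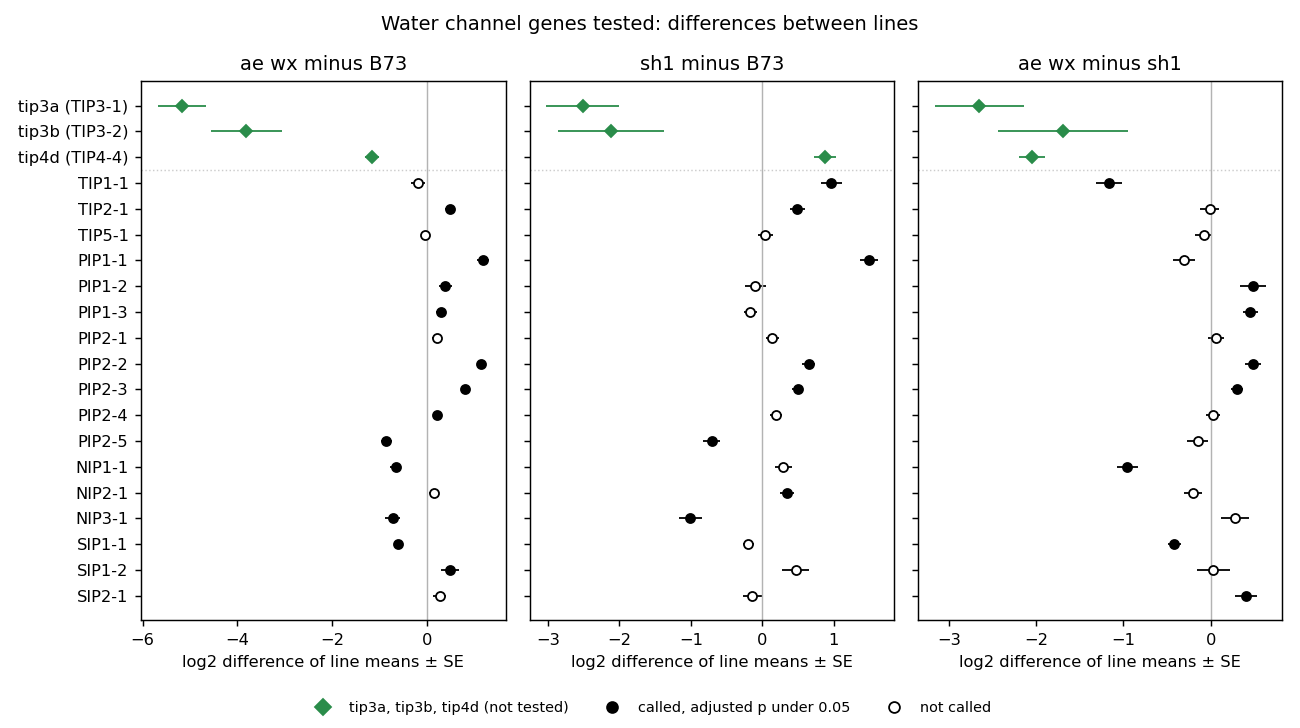
Log2 difference of line means with its standard error (horizontal axes, each panel with its own scale) for each water channel gene tested, in the comparisons of ae wx with B73, of sh1 with B73 and of ae wx with sh1. Filled circles are calls at an adjusted p under 0.05, open circles are not called, and diamonds are tip3a, tip3b and tip4d, which were not tested. The tip3a point lies at -5.17 in ae wx against B73, and the tip3b points of ae wx rest on signals below background, so the differences drawn there are not measured sizes.

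Of the 8 plasma membrane channels tested, 6 were called higher and 1 lower in ae wx than in B73, and 3 of the 6, described last, rest on small differences. In sh1 against B73, 3 were higher and 1 lower. The shares of all probe sets given above, 29.1% and 24.4% for ae wx and 30.5% and 25.5% for sh1, hold for these counts too. PIP1-1 rose by 1.19 ± 0.13 in ae wx (limma, adjusted p = 3.98e-05) and by 1.49 ± 0.13 in sh1 (limma, adjusted p = 7.37e-06), from a mean of 291.9 ± 28.1 in B73 to 683.1 ± 40.2 and 851.8 ± 133 in ae wx and sh1. PIP2-2 rose by 1.14 ± 0.09 in ae wx (limma, adjusted p = 5.27e-06) and by 0.65 ± 0.09 in sh1 (limma, adjusted p = 0.000223). PIP2-3 rose by 0.80 ± 0.07 in ae wx (limma, adjusted p = 1.36e-05), but its other probe set was at -0.16 (limma, adjusted p = 0.2) and was not called, and the brighter probe set is of a design that matches more than 1 transcript. PIP2-5 moved the other way, by -0.86 ± 0.12 in ae wx (limma, adjusted p = 0.000223) and -0.71 ± 0.12 in sh1 (limma, adjusted p = 0.000678). The brightest probe set of PIP2-1 was called in no comparison, and its other probe set was higher in ae wx than in B73 by 0.24 (limma, adjusted p = 0.0315). The 3 remaining PIPs called higher in ae wx, PIP1-2, PIP1-3 and PIP2-4, had log2 differences of 0.39, 0.29 and 0.22 (limma, adjusted p = 0.0468, 0.0231 and 0.0495), and leaving out single arrays of any of the lines ended the calls of PIP1-2 and PIP2-4, with adjusted p up to 0.172, as leaving out B73 replicate 2 did for PIP1-3 (limma, adjusted p = 0.0577), which passed the filter through ae wx alone.

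Of the NIPs and SIPs, NIP1-1 was lowest in ae wx, as tip4d was, with differences of -0.66 ± 0.12 against B73 (limma, adjusted p = 0.00128) and -0.95 ± 0.12 against sh1 (limma, adjusted p = 0.000196). NIP3-1 was lower in both mutant lines than in B73, by -0.72 ± 0.16 in ae wx (limma, adjusted p = 0.00368) and -1.01 ± 0.16 in sh1 (limma, adjusted p = 0.000485). NIP2-1, known in rice as the silicon transporter gene Lsi1, rose by 0.35 ± 0.10 in sh1 (limma, adjusted p = 0.0139), a call that ended without sh1 replicate 3 (limma, adjusted p = 0.0568). SIP1-1 fell in ae wx by 0.61 ± 0.08 (limma, adjusted p = 0.000125) from a mean of 4065 ± 239 in B73 to 2655 ± 108, and by 0.41 against sh1 (limma, adjusted p = 0.0022). SIP1-2 in ae wx against B73, at 0.49 (limma, adjusted p = 0.0495, arrays overlapping), and SIP2-1 in ae wx against sh1, at 0.40 (limma, adjusted p = 0.0346), lost their calls when single arrays were left out.

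Genes of the vacuole that are no water channels were few on the array. The proton-pumping pyrophosphatases of the vacuolar membrane, vpp1 and vpp3, were bright, and the legumain-type vacuolar proteases see2a and see2b were too dim to be tested. vpp3 fell by 0.28 ± 0.08 in ae wx (limma, adjusted p = 0.0149) and by 0.39 ± 0.08 in sh1 (limma, adjusted p = 0.00269) against B73, the former not called without ae wx replicate 1 (limma, adjusted p = 0.0555). vpp1 rose by 0.42 ± 0.13 in sh1 (limma, adjusted p = 0.0236), a call that ended without B73 replicate 3 or sh1 replicate 1, and was at 0.05 in ae wx (limma, adjusted p = 0.795). Its other probe set was at 0.05 in sh1 (limma, adjusted p = 0.753) with overlapping arrays and was not called. Both lay within 0.12 (log2) of the other B73 arrays on replicate 3, at -0.12 and -0.11. see2b had a B73 mean of 149.9 ± 20.6 and was above background on no array of the mutant lines, at least 1.37-fold below B73 in ae wx and 1.65-fold in sh1. The other protease gene, see2a, was highest in ae wx, with a mean of 131.2 ± 17.6 and 2 arrays above background. It was above background on no array of B73 or sh1, and ae wx was at least 1.22-fold above B73 and 1.45-fold above sh1. The differences of vpp1 and vpp3 from B73 were smaller than those of tip3a and tip3b. The latter genes were chosen on their differences, so nothing is read from this.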

How the data were processed

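The deposited values are linear intensities, 1 for each probe set on each array. The submitters' processing notes name GCOS 1.4 without saying what it did, and how probes were summarised and arrays scaled is not given in the sources used here. Its 17734 probe sets include 113 array controls and 66 reporter probe sets, which were left out. Values were used as deposited, with 2% trimmed means of 625.6 to 686.4 per array. Probe sets with a signal of at least 20% of the trimmed mean (125.1 to 137.3) on at least 3 arrays were kept, 12394 in all. The test used limma 3.58.1 (R 4.3.3) on log2(signal + 16) (lmFit with 1 mean per line over 9 arrays, eBayes with an intensity trend, two-sided, Benjamini-Hochberg over all probe sets kept, called at an adjusted p under 0.05). The fit was tested on simulated data. A fold on the log2 scale understates the change of dim genes. Because the labels do not say what was replicated beyond calling the samples biological, p-values measure the spread between these samples.

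Names came from the platform annotation and RefSeq synonyms (assembly Zm-B73-REFERENCE-NAM-5.0), giving names to 1278 probe sets of 983 genes and left 16277 unnamed; 1377 of 1453 annotated probe sets were found there. That table has no gene descriptions, so lists of water channel and vacuole genes were drawn from names. Genes that share a name with another gene, 5 in all, were left out of the lists by hand. The brightest probe set stood for a gene, and others of a gene whose difference is given are named where they differed by over 1 (log2) or in the call. Members, lists and tests were chosen with earlier results of these data known. Genes named are the members, the called water channel and vacuole genes, the embryo and aleurone markers, the leading markers of other lists and the 5 genes most like tip3a by each measure; TIP2-3, TIP5-1, PIP2-1, see2a and see2b were named after their values were seen. The labels do not say whether replicate numbers pair the samples, and the main fit used no pairing. Correlations of deviations from line means ran from -0.231 to 0.136 for same-numbered arrays of different lines. They ran from -0.16 to 0.194 for other-numbered ones. With 3 arrays per line these cannot show whether samples were paired. Alternatives were other pseudocounts, filters, scalings, fits and single arrays left out. All value columns belonged to samples.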

Additional observations from a re-analysis of the deposited data

How the results depend on the processing

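Of the 20 alternatives, none reversed a direction. Of 37 gene calls, 20 were kept in all 20 alternatives, and 5 more (PIP2-5 and NIP3-1 against B73, PIP1-3 in ae wx against sh1) were kept in those that could be run, since other filters or left-out arrays removed the gene. With a pseudocount of 64 the ae wx against sh1 difference was -2.39 for tip3a, -1.85 for tip4d and -1.17 for tip3b, and with a pseudocount of 1 it was -1.99 for tip3b. Leaving out 1 array gave tip3a -5.94 to -4.77, -3.29 to -2.12 and -2.82 to -2.57 (ae wx with B73, sh1 with B73, ae wx with sh1), tip3b -4.95 to -3.15, -3.26 to -1.45 and -1.88 to -1.59, and tip4d -1.30 to -1.04, 0.74 to 0.98 and -2.12 to -1.92. In the same order, the water channel calls ranged from 8 to 14, 7 to 11 and 4 to 8, those of the vacuole genes from 0 to 1, 1 to 2 and 0 to 1, and those of the embryo and aleurone markers from 2 to 4, 2 to 4 and 0 to 2. Over the other settings, the main fit included, the water channel calls ranged from 8 to 12, 6 to 10 and 6 to 11. The vacuole calls were 3 and 2 with no filter (ae wx against B73, ae wx against sh1), 1 with quantile normalization (sh1 against B73), 1 and 1 when only the lines compared were fitted, and 1 and 2 with array weights (sh1 against B73, ae wx against sh1), and 1 with sh1 replicates 2 and 3 averaged (ae wx against sh1). The embryo and aleurone calls in ae wx against sh1 were 2 when only the lines compared were fitted and 3 with array weights. With the replicate number as a block, though the labels state no pairing by number, there were 9, 9 and 6 water channel calls, and 1 vacuole call in ae wx against sh1. Calls over all probe sets also moved with the setting. In ae wx against sh1 they were 2211 higher and 2332 lower in the main fit. With array weights they were 3883 and 4129, and without ae wx replicate 2 they were 1513 and 1706. The causes were not tested. Depth has no meaning for arrays: dim probe sets near background limit small changes, and tip3b in ae wx, whose differences above rest on signals below background, gives only a bound.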
